A study of Mus musculus with 6 samples.

Results

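The RNA of 9 macrophage marker genes was compared between livers of mice with and without a guide RNA against Prdx2. The 9 genes are the rows of the deposited gene count table with the symbols Gpnmb, Trem2, Cd9 and Cd63, taken here as markers of lipid-associated macrophages, and Msr1, Mpeg1, Cd68, Adgre1 and Csf1r, taken as general macrophage markers. All 9 were found among the 52459 genes of the table, and all 9 were among the 17032 genes that passed the filter on low counts. The mice were males of the first generation of a cross of Alb-Cre and Cas9 mice on the C57BL6J strain, so that Cas9 was made in hepatocytes, where the albumin promoter drives Cre, and the macrophages themselves were not the edited cells. At 4 to 5 weeks of age they received an AAV8 vector into the blood that carried a control guide RNA (sgCtrl, livers 5.1, 7.1 and 7.2) or a guide RNA against Prdx2 (sgPrdx2, livers 1.1, 1.3 and 3.2). Both groups then received diethylnitrosamine (DEN), a carcinogen that acts on hepatocytes, at 100 mg/kg 3 weeks after the vector and, from 1 week later, 6 months of the CDAHFD, which is rich in fat and lacks choline, and livers were taken at 8 months of age. RNA of whole frozen liver was sequenced, from a separate mouse for each library, and no liver without DEN and diet is among the 6.

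Macrophages of the liver comprise resident Kupffer cells and cells that arise from recruited blood monocytes. In fatty liver disease, some of them take up and break down lipid and switch on a shared set of genes, and such cells are called lipid-associated macrophages. Trem2, a receptor for lipids and lipoproteins that signals through the adaptor Tyrobp, is the best known marker of this state. Gpnmb, a glycoprotein of lysosomal and cell surface membranes that is a target of the MiT/TFE transcription factors, and the tetraspanins Cd9 and Cd63 are usually found with it. The general markers serve most macrophages: Csf1r is the receptor for the growth factors Csf1 and Il34, Adgre1 encodes the F4/80 antigen, Cd68 a lysosomal glycoprotein, Msr1 a scavenger receptor for modified lipoproteins and Mpeg1 a pore-forming protein that acts on engulfed bacteria.

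Sequence just before the start of transcription is shown for Gpnmb and Cd9, the lipid-associated markers that passed the test below, and for Trem2, which did not. Each window is read 5' to 3' on the strand of its gene from the RefSeq table for GRCm38.p6, and capitals mark a match to a motif searched over the 250 bases before the RefSeq start. Gpnmb was read at chr6:49036418-49036517 (+), Cd9 at chr6:125494792-125494891 (-) and Trem2 at chr17:48346301-48346400 (+). The Cd9 window stops 31 bases before the RefSeq start, where its annotated exon begins in GENCODE.
Gpnmb: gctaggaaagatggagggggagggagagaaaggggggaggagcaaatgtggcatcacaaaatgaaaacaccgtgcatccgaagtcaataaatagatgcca
Cd9: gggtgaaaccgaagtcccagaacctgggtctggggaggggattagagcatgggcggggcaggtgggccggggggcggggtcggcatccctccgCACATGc
Trem2: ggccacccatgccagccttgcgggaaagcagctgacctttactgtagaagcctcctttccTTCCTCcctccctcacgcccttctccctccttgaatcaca
The motifs, searched on both strands, were CATGTG and CACGTG, bound by MiT/TFE factors, GAGGAA, the core bound by the macrophage factor PU.1, and the TATA box TATAAA. Of the 6 members with a sequence used here (these 3, Cd63, Cd68 and Mpeg1), Cd9 alone held CATGTG, as its reverse complement at position -38, against 12.3% of 32851 promoters. GAGGAA was found in Trem2, Cd63 and Cd68, against 23.3% of promoters, and neither CACGTG (6.0% of promoters) nor TATAAA (12.4%) was found in the 6. Gpnmb held none of the 4 motifs in this window, but its first coding transcript in GENCODE M21 starts at position 49036615, downstream of the RefSeq start. In the 69 bases that lead up to that start, read from the transcript Gpnmb-205, which starts earlier, the reverse complement of CATGTG was present once, 24 bases before it, at chr6:49036583-49036604 (+), with the match in capitals.
Gpnmb, before the coding start: taaaacatCACATGatctccct
These matches describe the sequence, and binding was not measured.

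Libraries held 37462102 to 56865293 counts per liver, so that 3 counts, the floor used here, stood for 0.0555 to 0.0921 normalized CPM (counts scaled to the library's effective size), far under every member. Such floors cover counting error only. Prdx2 itself ran from 109 to 132 CPM in sgCtrl and from 99.0 to 149 CPM in sgPrdx2 livers (log2 fold change 0.01, adjusted p = 0.983), so its RNA did not check the labels. Over all genes the log2 fold change had a median of -0.02 with the normalization used (TMM) and of -0.39 with library size alone, and directions are relative to the other genes. The library of sgPrdx2 liver 3.2 stood apart from the other sgPrdx2 libraries by transcript length: genes with a median transcript under 1.5 kb were higher in it (median log2 difference 0.42, 3073 genes), those of 1.5 to 3 kb differed by 0.06 (5206 genes) and those over 3 kb were lower by a median difference of -0.29 (5570 genes). Values of the markers without this library, and calls that change without it, are given beside the results.

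All 9 markers had a lower mean in sgPrdx2 than in sgCtrl livers, and 4 of them passed the test, with 2 from each class. Gpnmb, with the largest change of the 9, fell to 47.3% of its sgCtrl level, and Cd9, Mpeg1 and Msr1 fell to 58.7%, 56.6% and 56.8%. A gene was called where edgeR's quasi-likelihood test gave a Benjamini-Hochberg adjusted p under 0.05 over all genes tested. Of all 17032 genes, 262 were called lower (1.54%) and 305 higher (1.79%), and 4 of 9 markers were called lower and 0 higher. In 6 of the 9 markers each sgPrdx2 liver was below each sgCtrl liver, a pattern that 17.5% of all genes had, while 16.7% of all genes separated in the other direction and 0 of the 9 markers did. Whole liver was measured, so fewer macrophages, less of these RNAs in each macrophage and a change in other cells cannot be told apart.

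**Figure D1:**
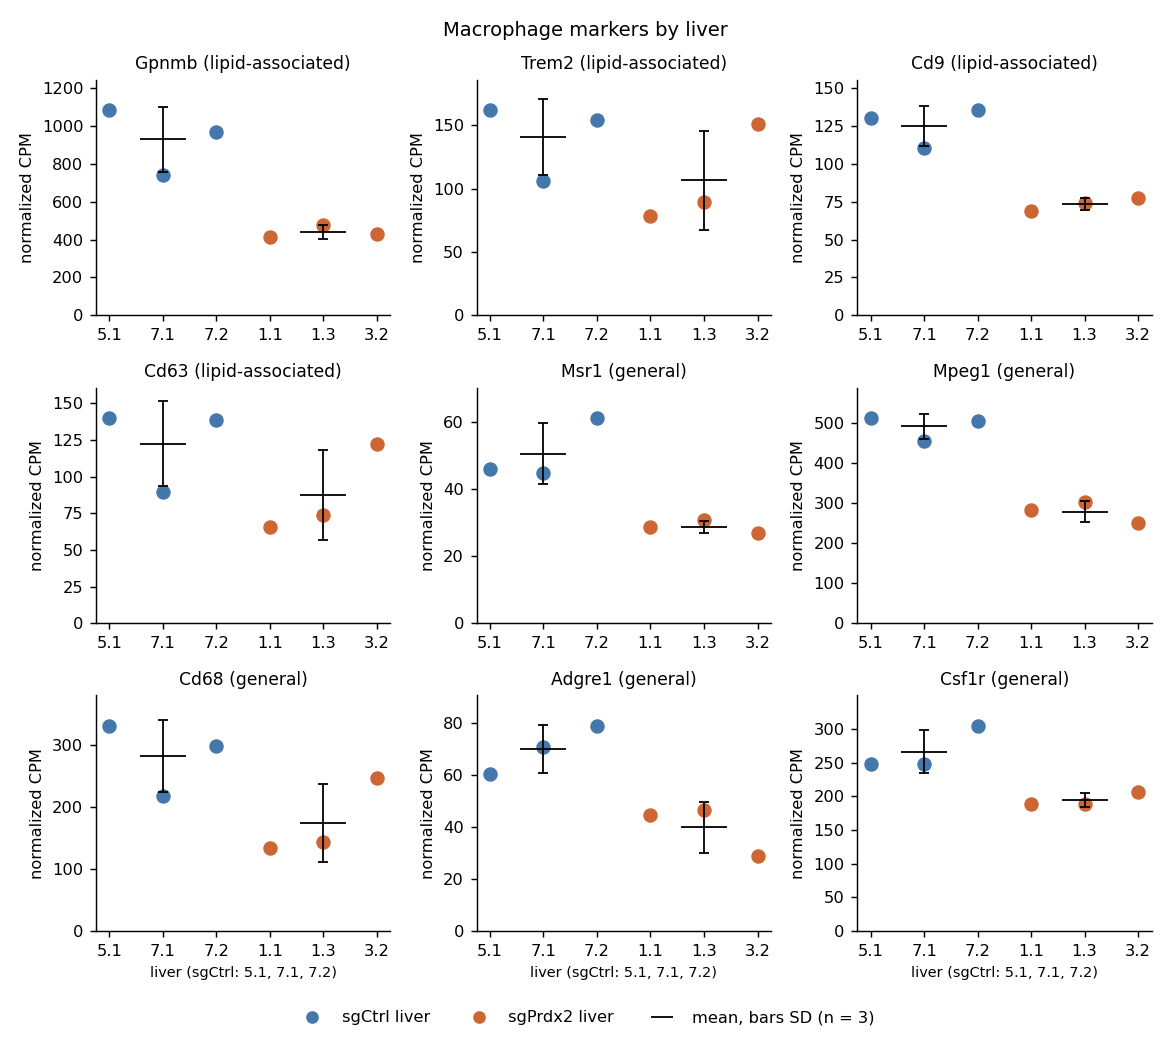
Normalized CPM (y axis, from 0) of each of the 9 markers in each liver (x axis), with the mean and SD of each group of 3. Gpnmb, Cd9, Msr1, Mpeg1, Adgre1 and Csf1r separated the groups, while sgPrdx2 liver 3.2 reached into the sgCtrl range for Trem2 (151.5 CPM), Cd63 (122.5 CPM) and Cd68 (246 CPM).

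Among the lipid-associated markers, Gpnmb (chr6:49036546-49070929, + strand, GRCm38) changed most. Its level was 1082, 743.8 and 966.4 CPM in sgCtrl livers 5.1, 7.1 and 7.2 and 412.1, 479.5 and 427.6 CPM in sgPrdx2 livers 1.1, 1.3 and 3.2. The sgPrdx2 livers lay close together (440 ± 35.3 CPM, SD, n = 3), all below the lowest sgCtrl liver, 7.1. The log2 fold change was -1.08 ± 0.18 (SE, adjusted p = 0.0373, edgeR's quasi-likelihood test). Cd9 (chr6:125460266-125494791, - strand), a tetraspanin that organizes integrins and other membrane proteins, had 130.1, 110.2 and 135.2 CPM in sgCtrl and 69.01, 73.95 and 77.37 CPM in sgPrdx2 livers. Here too the groups did not overlap, and the spread within the sgPrdx2 group was small (SD 4.20 CPM). The log2 fold change of Cd9 was -0.77 ± 0.14 (SE, adjusted p = 0.0394). Without sgPrdx2 liver 3.2 the log2 fold changes were -1.05 for Gpnmb (adjusted p = 0.0464) and -0.80 for Cd9 (adjusted p = 0.0392).

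Trem2 (chr17:48346401-48354147, + strand) did not pass the test. Its level was 161.8, 106 and 154.3 CPM in sgCtrl livers 5.1, 7.1 and 7.2 and 78.36, 89.74 and 151.5 CPM in sgPrdx2 livers 1.1, 1.3 and 3.2. The sgPrdx2 livers 1.1 and 1.3 lay below all sgCtrl livers, and liver 3.2 lay between sgCtrl livers 7.1 and 7.2. The log2 fold change was -0.40, with a 95% interval of -1.04 to 0.23 (adjusted p = 0.395). Cd63 (chr10:128900989-128912822, + strand), a tetraspanin of late endosomes and lysosomes, had 139.8, 89.26 and 138.9 CPM in sgCtrl and 65.51, 73.93 and 122.5 CPM in sgPrdx2 livers. It showed the same order of livers within the sgPrdx2 group, with 3.2 again above sgCtrl liver 7.1. Its log2 fold change was -0.49, with a 95% interval of -1.13 to 0.14 (adjusted p = 0.305). Without sgPrdx2 liver 3.2 the values were -0.73 for Trem2 (adjusted p = 0.0907) and -0.80 for Cd63 (adjusted p = 0.0857), still above the threshold.

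Among the general markers, Mpeg1 (chr19:12460779-12465283, + strand) had 511.6, 456 and 506 CPM in sgCtrl livers 5.1, 7.1 and 7.2 and 282.9, 302 and 249.6 CPM in sgPrdx2 livers 1.1, 1.3 and 3.2. Its log2 fold change was -0.82 ± 0.14 (SE, adjusted p = 0.0394). Msr1 (chr8:39581685-39642673, - strand) had 45.89, 44.8 and 61.15 CPM in sgCtrl and 28.73, 30.66 and 26.81 CPM in sgPrdx2 livers. In both genes the groups did not overlap, and liver 3.2 was the lowest of the sgPrdx2 livers rather than the highest. Msr1 stood at a log2 fold change of -0.82 ± 0.15 (SE, adjusted p = 0.0409), and its adjusted p was 0.0545 without liver 3.2. Adgre1 (chr17:57358691-57483527, + strand) had 60.63, 70.95 and 78.95 CPM in sgCtrl and 44.7, 46.63 and 28.81 CPM in sgPrdx2 livers. Csf1r (chr18:61100598-61132149, + strand) had 247.5, 247.7 and 304 CPM in sgCtrl and 188.3, 188.4 and 206 CPM in sgPrdx2 livers. The groups did not overlap in either gene, but neither passed the test, with log2 fold changes of -0.81 (adjusted p = 0.0690) for Adgre1 and -0.46 (adjusted p = 0.110) for Csf1r. Without liver 3.2 the log2 fold change was -0.74 for Mpeg1 (adjusted p = 0.0430) and -0.76 for Msr1. It was then -0.61 for Adgre1 (adjusted p = 0.0583) and -0.49 for Csf1r (adjusted p = 0.0992).

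Cd68 (chr11:69664213-69666153, - strand) had 329.9, 217.2 and 297.8 CPM in sgCtrl and 133, 143.2 and 246 CPM in sgPrdx2 livers. Although listed with the general markers, it followed the order of livers seen in Trem2 and Cd63, with liver 3.2 above sgCtrl liver 7.1. Its log2 fold change was -0.69 (95% interval -1.32 to -0.07, adjusted p = 0.164), and it was -1.02 (adjusted p = 0.0482) without liver 3.2. With each liver left out in turn, edgeR called 0 of the 9 markers without sgCtrl liver 5.1, sgCtrl liver 7.2, sgPrdx2 liver 1.1 or sgPrdx2 liver 1.3, where 0 of all genes were called and 5 or 6 of the markers had an unadjusted p under 0.05, as 17.9% to 23.1% of all genes did. It called 3 without sgCtrl liver 7.1, where 394 of 17461 genes were called, and 4 without sgPrdx2 liver 3.2, where 619 of 17557 were. DESeq2 on all 6 livers called 6 of the markers lower, among 2052 calls (887 of them lower) over 28631 genes tested.

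**Figure D2:**
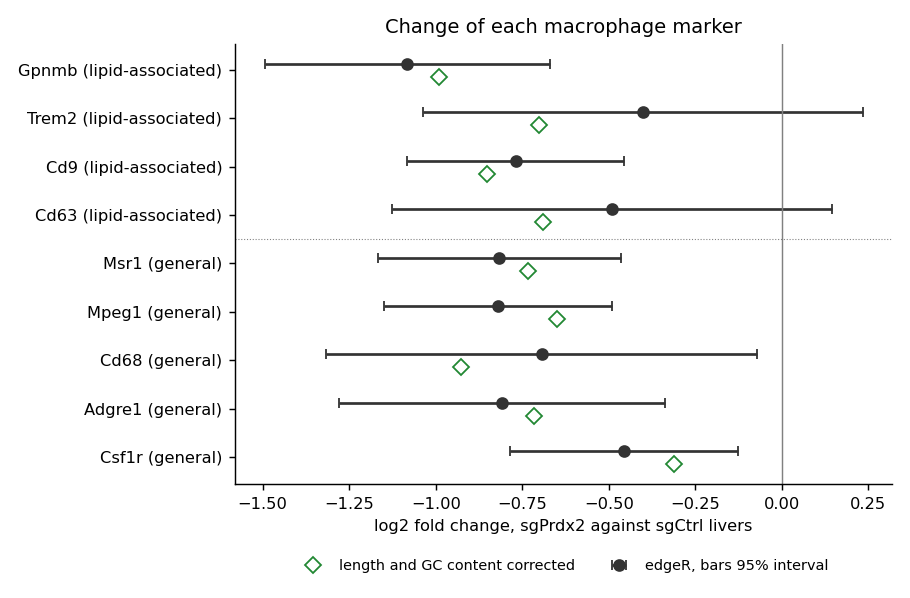
Log2 fold change (x axis) of each marker (y axis), sgPrdx2 against sgCtrl livers, with 95% intervals from edgeR (filled points) and after correction for transcript length and GC content (open diamonds). All points lie below 0, the filled ones from -1.08 for Gpnmb to -0.40 for Trem2 and the open ones from -0.99 for Gpnmb to -0.31 for Csf1r, and the intervals of Trem2 and Cd63 reach above 0.

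Next, the lipid-associated markers were set against the general ones within each liver, to ask whether they were lower beyond the general markers. The mean log2 CPM of the 4 lipid-associated markers differed by -0.70 between the groups (sgPrdx2 minus sgCtrl) and that of the 5 general markers by -0.73, and in both classes each sgPrdx2 liver was below each sgCtrl liver. The difference between the classes (lipid-associated minus general, mean log2 CPM) was 0.54, 0.15 and 0.31 in sgCtrl livers 5.1, 7.1 and 7.2 and 0.16, 0.26 and 0.66 in sgPrdx2 livers 1.1, 1.3 and 3.2. The groups overlapped, with 0.33 ± 0.20 (SD, n = 3) in the former and 0.36 ± 0.26 (SD, n = 3) in the latter, a change of 0.03. The direction of this change was not stable: it was -0.12 without sgPrdx2 liver 3.2 and -0.06 without sgCtrl liver 7.1. The median log2 fold change was -0.63 over the lipid-associated and -0.81 over the general markers, against -0.02 over all genes, and without liver 3.2 the order turned, at -0.80 and -0.74.

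**Figure D3:**
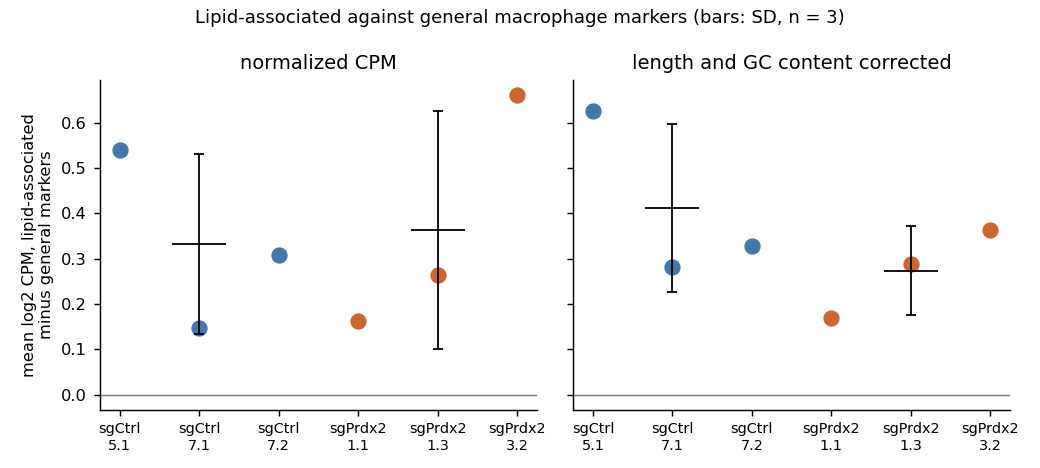
Mean log2 CPM of the lipid-associated minus that of the general markers (y axis) in each liver (x axis), as normalized CPM on the left and corrected for transcript length and GC content on the right, with the mean and SD of each group of 3. The groups overlap in both, and sgPrdx2 liver 3.2 moves from 0.66 to 0.36.

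The lipid-associated markers were also read singly. Relative to 100 CPM of the 5 general markers together, Gpnmb stood at 90.5, 71.8 and 77.4 CPM in sgCtrl and 60.8, 67.4 and 56.5 CPM in sgPrdx2 livers, with no overlap. Cd9 stood at 10.9, 10.6 and 10.8 CPM in sgCtrl and at 10.2, 10.4 and 10.2 CPM in sgPrdx2 livers, apart by a small step and nearly in proportion to the general markers. For Trem2 the same measure was 13.5, 10.2 and 12.4 CPM in sgCtrl and 11.6, 12.6 and 20 CPM in sgPrdx2 livers, and for Cd63 it was 11.7, 8.61 and 11.1 CPM against 9.67, 10.4 and 16.2 CPM. Liver 3.2 held the highest value of all 6 in both genes, and the groups overlapped. Of the 20 ratios of a lipid-associated to a general marker, 2 separated the groups with lower and 2 with higher values in sgPrdx2 livers, 10% each. These ratios share the same 9 genes. The levels of single genes did so for 17.5% and 16.7% of all genes, but the share for ratios of other gene pairs was not computed. Gpnmb and Cd9 to Csf1r were lower (log2 differences of -0.62 and -0.32), and Trem2 and Cd63 to Cd68 were higher (0.29 and 0.21). The mean Gpnmb ratio was lower in sgPrdx2 livers against each of the 5 general markers, also without liver 3.2 and after correction for transcript length and GC content. The Trem2 ratio was lower against 0 of 5, but against 2 of 5 without liver 3.2 (Adgre1 and Csf1r) and 2 of 5 after that correction (Mpeg1 and Csf1r). The Cd9 ratio was lower against 2 of 5, and against 4 of 5 without liver 3.2 and 4 of 5 after the correction. For Cd63 these counts were 1, 4 and 2 of 5.

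The markers fell into sets that cross the classes. Over the 6 livers, with each gene centred on its own mean log2 CPM, the root mean square distance was 0.05 between Trem2 and Cd63, 0.12 between Cd63 and Cd68 and 0.15 between Cd68 and Trem2. Cd9, Mpeg1 and Msr1 were as near to each other, at 0.13, 0.13 and 0.14. By contrast Adgre1, the gene lowest in liver 3.2, lay 0.60 from Trem2. These sets were noticed after the values were seen. Compared with the mean of the other sgPrdx2 livers, liver 3.2 was higher by a log2 difference of 0.85 for Trem2, 0.81 for Cd63 and 0.83 for Cd68, which placed them at the 96.5, 95.8 and 96.2 percentile of 13849 genes. The median transcripts of these 3 genes, at 1072, 1063 and 1119 bases, are the shortest of the 9, and Cd9 follows at 1228 bases with a difference of 0.11. The markers with longer transcripts had differences from -0.66 for Adgre1 to 0.13 for Csf1r. In the sgCtrl group, liver 7.1 was the lowest for 7 of the 9 markers, all but Adgre1 and Csf1r, with log2 differences from the mean of the other livers of -0.58 for Trem2, -0.64 for Cd63, -0.53 for Cd68 and -0.46 for Gpnmb, while its length classes differed by medians of -0.09 to 0.07. The part of transcript length in the values of single markers was not tested beyond the correction that follows.

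**Figure D4:**
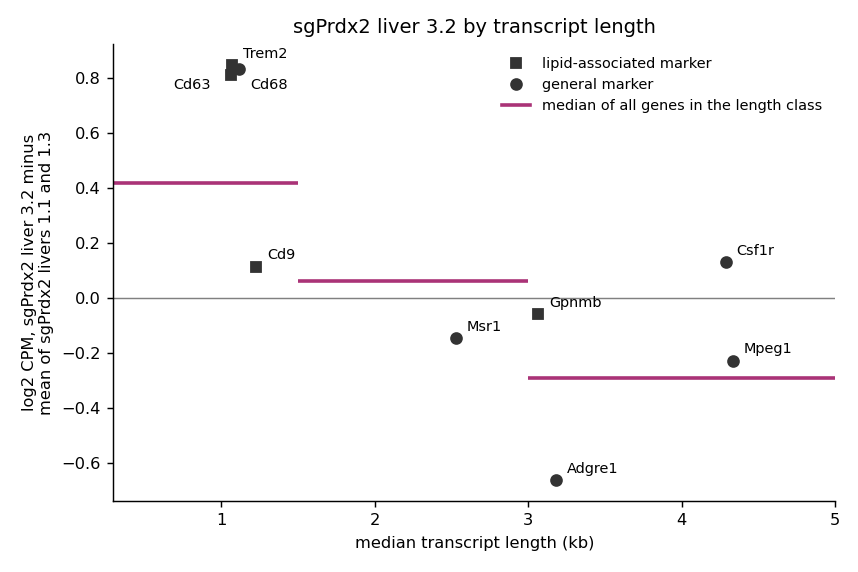
Log2 CPM of sgPrdx2 liver 3.2 minus the mean of livers 1.1 and 1.3 (y axis) against median transcript length in kb (x axis) for the 9 markers, with the median of all genes in 3 length classes as lines. Trem2, Cd63 and Cd68, with transcripts of 1063 to 1119 bases, lie from 0.81 to 0.85, above the median of their length class (0.42).

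After each library was corrected for transcript length and GC content, a step chosen after liver 3.2 was seen to stand apart, 6 of the 9 markers were called lower, among 529 lower calls in 16542 genes. Cd68 (log2 fold change -0.93, adjusted p = 0.0352) and Adgre1 (-0.72, adjusted p = 0.0444) joined the 4 called before. Trem2 then had 175.9, 123 and 159.7 CPM in sgCtrl and 80.32, 92.95 and 109 CPM in sgPrdx2 livers, without overlap, at a log2 fold change of -0.70 and an adjusted p of 0.0515. Cd63 had -0.69 (adjusted p = 0.0807) and Csf1r -0.31 (adjusted p = 0.219), and in both the groups overlapped. The change of the lipid-associated minus the general markers was then -0.14, again with overlapping groups.

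Levels can be compared between genes only per length of transcript. Per kb of annotated exon, the order in sgCtrl livers was Cd68 (224 ± 46.2 CPM per kb, SD, n = 3), Gpnmb (206 ± 38.1), Trem2 (123 ± 26.5), Mpeg1 (113 ± 7.07), Cd9 (102 ± 10.7), Cd63 (84.6 ± 19.9), Csf1r (54.5 ± 6.67), Adgre1 (21.7 ± 2.84) and Msr1 (12.6 ± 2.28). Of the neighbours in this order, Gpnmb and Trem2, Csf1r and Adgre1, and Adgre1 and Msr1 did not overlap between livers, and the other neighbours did. Per kb of the median transcript, Gpnmb (304 ± 56.1) came before Cd68 (252 ± 51.9), with overlap, since Gpnmb has long and short transcripts. In sgPrdx2 livers, per kb of exon, Cd68 stood at 138 ± 49.7, Gpnmb at 97.4 ± 7.82 and Trem2 at 93.2 ± 34.4 CPM per kb (SD, n = 3). Some members share sequence with other genes: 27.7% of the 50-base stretches of Cd63 also lie in Cd63-ps, which had 22.02 to 34.15 CPM in sgCtrl and 15.4 to 26.84 CPM in sgPrdx2 livers. For Cd9, 15.5% are shared with Cd9-ps (0.246 to 0.685 CPM over the 6 livers) or the overlapping Gm26728, and for Csf1r 17.0% with the overlapping Hmgxb3 of the opposite strand, at 19.0 to 24.4 CPM over the 6 livers. The strand setting of the counting is not given in the sources used here, so reads of Csf1r and Hmgxb3 in the overlap cannot be told apart.

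Outside the 9 markers, the profile nearest to the mean of the lipid-associated markers among 14112 genes was that of G6pdx, the first enzyme of the pentose phosphate pathway, at a root mean square distance of 0.0432 over the 6 livers. It was followed by Cd72 (0.0517), C920009B18Rik (0.0609), Milr1 (0.0624) and Alox5ap (0.0638). Pfkp, a phosphofructokinase of glycolysis, was nearest to the mean of the general markers (0.0374), before Abcb1b (0.0393), Gm6560 (0.043), Apbb1ip (0.0447) and the chemokine gene Ccl3 (0.0458). In all 10 the sgPrdx2 livers lay below the sgCtrl livers, as their likeness to the class means fixes.

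Genes of the Trem2 pathway were read next. The kinase Syk, the phospholipase Plcg2 and the phosphatase Inpp5d were called lower, with log2 fold changes of -0.79 (adjusted p = 0.0328), -0.66 (adjusted p = 0.0491) and -0.71 (adjusted p = 0.0466, edgeR's quasi-likelihood test). Syk had 47.47, 45.49 and 50.07 CPM in sgCtrl and 27.75, 28.48 and 26.69 CPM in sgPrdx2 livers. In all, 8 of 9 genes of Trem2 signalling and shedding had a negative log2 fold change (median -0.58), as did 51.7% of all genes. Of the 9, 3 were called lower and 0 higher, against 1.54% and 1.79% of all genes. These signalling genes also serve other receptors of leukocytes. Tyrobp, the adaptor of Trem2, had 217.1, 158.2 and 224.2 CPM in sgCtrl and 118.1, 124.3 and 203.6 CPM in sgPrdx2 livers, overlapping in liver 3.2 as Trem2 did, at -0.43 (adjusted p = 0.315). After length and GC correction Tyrobp was called lower (-0.80, adjusted p = 0.0262), and Plcg2 was not (adjusted p = 0.0742). In all, 6 of the 9 genes were then called lower, against 529 of 16542 genes. Adam10 and Adam17, proteases that shed the outer part of Trem2, had log2 fold changes of -0.48 (adjusted p = 0.0638) and -0.60 (adjusted p = 0.0813). Without sgPrdx2 liver 3.2 Adam17 was called lower (-0.43, adjusted p = 0.0488). Of the 5 other genes of the Trem family, 0 were called by edgeR, with Treml2 and Treml4 (log2 fold changes of -1.21 and -0.53) at an unadjusted p under 0.05, which 24.9% of all genes had, and Treml2 was called by DESeq2.

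Among 15 other genes of lipid-associated macrophages, 14 had a negative log2 fold change (median -0.49), as 51.7% of all genes did. Mmp12, a macrophage elastase, was the 1 called lower, against 1.54% of all genes. It fell from 719.5, 549.2 and 551.3 CPM in sgCtrl to 212.2, 257.1 and 312.4 CPM in sgPrdx2 livers (log2 fold change -1.22, adjusted p = 0.0358). The fatty acid transporter Cd36 had -0.72 (adjusted p = 0.0555), and Spp1, which encodes osteopontin, had -0.46 (adjusted p = 0.117). Apoe was the exception, with 18740 to 22090 CPM in sgCtrl and 28300 to 47000 CPM in sgPrdx2 livers (log2 fold change 0.83, adjusted p = 0.0864). Apoe and other genes of this list can also be made outside macrophages, and the source of the RNA was not tested. DESeq2 called Apoe higher and 6 genes of this list lower, while it called 887 of 28631 genes lower. Of 13 other general macrophage genes, 12 had a negative log2 fold change (median -0.52) and 3 were called lower: the integrin gene Itgam (-1.24, adjusted p = 0.0394), the NADPH oxidase gene Cybb (-0.71, adjusted p = 0.0394) and the lysosomal gene Laptm5 (-0.76, adjusted p = 0.0491). With length and GC content corrected, 4 of the 15 and 6 of the 13 were called lower, against 529 of 16542 genes. Lgals3, Cd36 and Ctsk joined the called genes of the first list, and Cybb lost its call (adjusted p = 0.0503). Without sgPrdx2 liver 3.2 the numbers called lower were 4 (Lgals3, Itgax, Capg and Mmp12) and 3 (Itgam, Cybb and Fcgr3), against 295 of 17557 genes. Laptm5 was not among them (adjusted p = 0.0542).

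**Figure D5:**
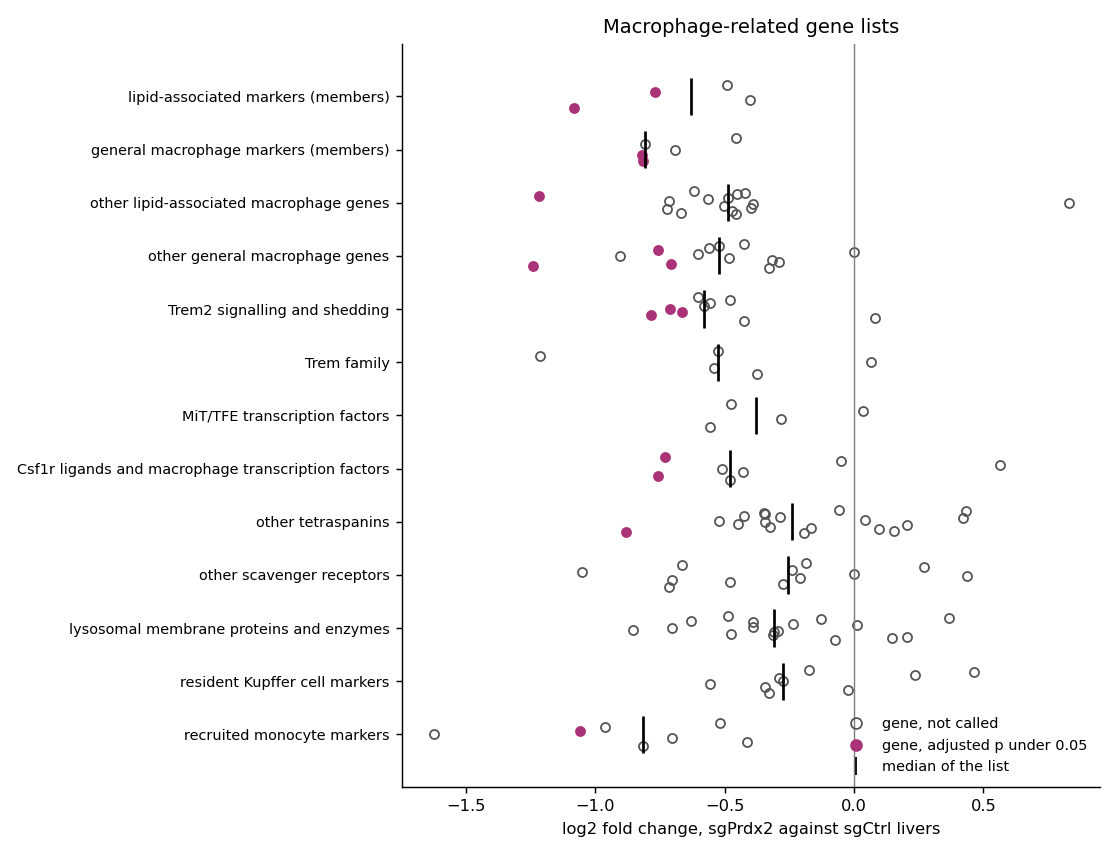
Log2 fold change (x axis), sgPrdx2 against sgCtrl livers, of each tested gene in 13 lists of macrophage-related genes (y axis), with filled points for genes called at an adjusted p under 0.05 and a bar at the median of each list. Medians run from -0.82 for the recruited monocyte markers and -0.81 for the general markers to -0.24 for the other tetraspanins, and each called gene lies below 0.

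Upstream of Csf1r and the macrophage genes, the ligand gene Il34 (log2 fold change -0.76, adjusted p = 0.0487) and the transcription factor gene Runx1 (-0.73, adjusted p = 0.0417) were called lower. These were 2 of the 7 tested, against 1.54% of all genes. After length and GC correction Runx1 was not called (adjusted p = 0.0570), and Il34, Spi1 and Irf8 were, among 529 lower calls in 16542 genes. Il34 had 11.51, 12.1 and 12.33 CPM in sgCtrl and 6.015, 6.879 and 8.385 CPM in sgPrdx2 livers, with no overlap. The other ligand gene, Csf1, stood at -0.48 (adjusted p = 0.116), and Spi1, which encodes PU.1, stood at -0.43 (adjusted p = 0.191). Of the MiT/TFE genes, Mitf had 10.39, 10.92 and 10.41 CPM in sgCtrl and 7.177, 7.526 and 6.849 CPM in sgPrdx2 livers (log2 fold change -0.56, adjusted p = 0.0584), and Tfeb stood at 0.04 (adjusted p = 0.912). Of the 4 MiT/TFE genes, 0 were called by edgeR and 3 had an unadjusted p under 0.05 (24.9% of all genes), and Mitf was called by DESeq2 and after length correction.

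The families to which the members belong were mixed. Of 18 other tetraspanins, 12 had a negative (51.7% of all genes did) and 6 a positive log2 fold change (median -0.24). Cd53 was called lower by edgeR (-0.88, adjusted p = 0.0409), as 1.54% of all genes were. The log2 fold changes were -0.195 for Cd37, -0.33 for Tspan3, 0.15 for Cd81 and 0.10 for Cd82. Their adjusted p by edgeR was 0.540, 0.136, 0.535 and 0.681. Of 12 other scavenger receptors tested, 10 had a negative log2 fold change (median -0.26) and 0 were called by edgeR. At an unadjusted p under 0.05 there were 5, in both directions, against 24.9% of all genes. DESeq2 called 3 lower and 1 higher, while it called 887 of 28631 genes lower. Among 17 lysosomal genes, 13 had a negative log2 fold change (median -0.31) and 0 were called by edgeR. An unadjusted p under 0.05 was found for 7, in both directions, against 24.9% of all genes. DESeq2 called 5 of the 17 lower, and 3 (Ctss, Lgmn and Gusb) were called lower after length and GC correction, against 529 of 16542 genes. The cathepsin genes Ctss and Ctsb had log2 fold changes of -0.86 and -0.47 (adjusted p by edgeR 0.0530 and 0.118), and Gusb had -0.49 (adjusted p = 0.0740). The lysosomal membrane genes Lamp1 and Lamp2 stood at -0.07 (adjusted p = 0.768) and 0.15 (adjusted p = 0.571).

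Markers of resident and of recruited cells were set beside these. For the resident Kupffer cells, 7 of 9 genes tested had a negative log2 fold change (median -0.28), against 51.7% of all genes, and 0 were called by edgeR or DESeq2. By edgeR 1 gene had an unadjusted p under 0.05, against 24.9% of all genes, and its log2 fold change was positive. The levels of these genes ran widely within the sgCtrl group. Without sgPrdx2 liver 3.2 the median was -0.02, with 6 of 9 negative. Clec4f, a lectin specific to Kupffer cells, had 24.6, 64.3 and 143.6 CPM in sgCtrl and 84.07, 50.15 and 50.71 CPM in sgPrdx2 livers, so that the groups overlapped (adjusted p = 0.731). Timd4 was under 1.1 CPM in all 6 livers, and Cd163 was at 0 to 0.16 CPM and was not tested. All 7 recruited monocyte markers had a negative log2 fold change (median -0.82), and 6 had an unadjusted p under 0.05 by edgeR, against 24.9% of all genes. DESeq2 called 3 of them lower (Ccr2, Chil3 and Vcan), among 887 lower calls in 28631 genes. By edgeR Vcan was called lower (-1.06, adjusted p = 0.0483), against 1.54% of all genes, at 1.41 to 3.98 CPM over the 6 livers. The edgeR call of Vcan was lost without liver 3.2 (adjusted p = 0.0577) and after length and GC correction (adjusted p = 0.0758), where Chil3 was the 1 gene of this list that was called. Ccr2, the receptor that brings monocytes to tissue, had 31.27, 29.87 and 29.36 CPM in sgCtrl and 20.73, 23.43 and 23.77 CPM in sgPrdx2 livers (-0.41, adjusted p = 0.0804 by edgeR). Whether the lists differ from each other was not tested.

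Markers of other cell types were read as well. All 8 hepatocyte markers had a positive log2 fold change (median 0.97). Of these, 4 were called higher (2, Ttr and Apoa1, without liver 3.2), against 1.79% of all genes. Albumin took 9.28% to 11.3% of all counts in sgPrdx2 against 6.61% to 7.01% in sgCtrl livers. The 8 together reached 132300 to 177500 CPM in sgPrdx2 against 76700 to 82490 CPM in sgCtrl livers. A negative log2 fold change, which 51.7% of all genes had, was found for all 6 cholangiocyte, 4 of 6 stellate cell and 5 of 6 endothelial markers. The groups separated with lower sgPrdx2 values in 2, 2 and 3 of them, against 17.5% of all genes. Of these markers edgeR called Pecam1 lower, against 1.54% of all genes. The largest change in these lists was that of Acta2, a gene of myofibroblasts, at -1.49 (adjusted p = 0.0584), which was called lower by DESeq2, without liver 3.2 and after length and GC correction, and Lyve1 was called lower by DESeq2 and after the correction. Of the T and B cell markers, Cd8a was called lower among 7, and its adjusted p was 0.0620 without liver 3.2. The 5 neutrophil, 6 dendritic cell and 3 platelet markers tested gave 0 calls by edgeR and DESeq2. By edgeR 2, 0 and 0 of them had an unadjusted p under 0.05, against 24.9% of all genes. With so few genes, 0 calls does not show that these cell types were unchanged. Gpnmb, Cd63 and Mitf are also genes of pigment cells, and of 5 markers of these Mlana, Tyr and Dct had 0 to 8 counts per liver, Tyrp1 had 0 in all 6, and Pmel had 13 to 29 (0.296 to 0.552 CPM). The part of the other cell types in the changes of the 9 markers was not tested.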

How the data were processed

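RNA-Seq of 6 livers was analysed, 3 sgCtrl and 3 sgPrdx2, grouped by their labels. The authors deposited raw counts of reads per gene, made, per the submitters' processing notes, with HISAT2, HTSeq and GRCm38 (versions, annotation and strand setting are not given in the sources used here). The authors' DESeq2 comparison, also deposited, holds mean levels, fold changes and p-values and was not used.

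Counts were filtered (filterByExpr, minimum count 10), TMM-normalized and tested with edgeR 4.0.16 in R 4.3.3 (quasi-likelihood test, no covariate, Benjamini-Hochberg adjustment over 17032 genes). Total counts per liver were 37462102 to 56865293. With 3 livers against 3 an exact permutation test cannot give p under 0.1, so none is quoted. No library was a copy of another. DESeq2 1.42.0 on the same counts was an alternative, as were other normalizations (among them scaling to Atp5b, Bag6, Cox8a, Hint1, Hnrnpa2b1 and Ndufa2, called housekeeping scaling), filters and leaving out each liver. A loess correction of transcript length and GC content per library was added after seeing the data. The fit was tested on simulated data. Annotation was GENCODE M21, which need not be that of the authors.

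The members and gene lists were chosen with earlier results of these data known. All members are named, and of each other list the called genes and up to 3 with the smallest p, with others chosen after their values were seen. The 5 genes nearest to each class mean had a mean of at least 1 CPM. The result of 1 listed gene is not reported here.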

Additional observations from a re-analysis of the deposited data

How the results depend on the processing

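All 9 markers kept a log2 fold change below 0 in all 14 alternative fits. Which of them were called changed: 4 with RLE or upper-quartile normalization or at least 10 counts in every liver, 5 with no filter, 6 with DESeq2, housekeeping scaling or length and GC correction, 8 with library size alone, and 0 to 4 with a liver left out. Adjusted p ran from 1.26e-06 to 0.147 for Gpnmb, from 3.64e-05 to 0.156 for Cd9 and from 0.0515 to 0.675 for Trem2, which was called in none. Over all genes, 567 calls became 3247 with library size alone (3041 of them lower), 989 with housekeeping scaling (919 lower), 1128 with no filter, 2052 with DESeq2, 1164 with length and GC correction, and 0 to 619 with a liver left out. Both scalings shifted the median of all genes to -0.39 and -0.38, and those of the lipid-associated and general markers to -1.02 and -1.16 with library size alone.

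The change of lipid-associated minus general markers, 0.03, turned to -0.14 with length and GC correction, -0.19 with the log2 of summed CPM and -0.025 without Cd9 and Cd63, and ran from -0.12 to 0.14 with a liver left out (-0.061 without sgCtrl liver 7.1, -0.12 without sgPrdx2 liver 3.2); the cause was not tested. It was 0.16 with medians and 0.16 without Gpnmb. No paired analysis was possible because the groups share no replicate number. Depth limited none of the markers, which had at least 873 counts in each liver.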
